A study of Saccharomyces cerevisiae BY4741 with 9 samples.

Results

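The genes described here encode the protein factors that start, extend and end translation in budding yeast. The set holds 37 listed genes, found by gene name in the deposited table of 7130 features, and all 37 passed the filter on low values among the 6559 features tested. They were sorted by role into 8 genes of mRNA activation, 6 of start codon selection, 5 of eIF2B, 6 of eIF3, 9 of elongation, and 3 of termination and recycling. Transcripts were measured by RNA sequencing in scc2-4 cells, mutant in the cohesin loader subunit Scc2, and in wild type (WT), both labelled BY4741. Each genotype has 3 libraries in the deposited table, described in the series' design as biological replicates. Both genotypes grew exponentially in rich YPD medium with a CSM supplement and were collected at an optical density of 0.7, and no treatment beyond pelleting is given. The mutant libraries were made after ribosomal RNA depletion. WT libraries are labelled with and without that depletion, 3 of each. The WT column names give a genotype and a number but no preparation. A difference of preparation therefore cannot be told apart from genotype where the WT columns are concerned. Of the strain markers, LEU2 and MET17 were at 0 in all 6 libraries, URA3 was at most 0.06 RPKM, and the MATa gene STE2 stood at 453 to 499 RPKM in scc2-4 and 248 to 360 RPKM in WT. HIS3 was present in all 6 libraries, at 45.0 to 55.3 RPKM in scc2-4 and 38.7 to 45.9 RPKM in WT. The MATa gene MFA1 stood at 136 to 142 RPKM in scc2-4 and 85.4 to 119.7 RPKM in WT. The MATalpha genes were low in both: STE3 stood at 1.94 to 2.32 RPKM in scc2-4 and 0.72 to 1.13 RPKM in WT, and MF(ALPHA)1 did not exceed 0.77 RPKM. Among these markers STE2, MFA1 and STE3 were called higher.

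Translation begins when the cap-binding complex eIF4F unwinds and recruits an mRNA, while eIF2 carries initiator tRNA to the small ribosomal subunit and eIF3 holds the assembly together. eIF2B recharges eIF2 with GTP after each round. Elongation factors then deliver aminoacyl-tRNA and move the ribosome, and release factors with the ATPase Rli1 free the finished protein and split the ribosome. In growing yeast these transcripts are among the abundant ones and are coordinated with those of ribosomal proteins.

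Levels are given as RPKM, which scales reads by feature length and by all reads assigned to features, so every value is a share of its library and not an amount per cell. A change in all cells and a change in some cells cannot be told apart in such cultures, nor can a change of a factor from a change in the rest of the RNA. Libraries held 14730000 to 21930000 assigned reads, and the fewest reads of a listed gene were 279 (ANB1, WT replicate 1). WT replicate 1 stood apart: its log2 values correlated with those of the other WT libraries at 0.977 and 0.968, while these 2 correlated at 0.993. The mutant libraries correlated at 0.990 to 0.993. Between genotypes, WT replicates 2 and 3 correlated with the mutant libraries at 0.9572 to 0.9725, and WT replicate 1 at 0.904 to 0.926. WT replicate 3 thus correlated with scc2-4 replicate 1 (0.9725) slightly more than with WT replicate 1 (0.9684). Adjusted p-values are from limma on log2(RPKM + 1), adjusted by Benjamini-Hochberg across every feature tested, with 0.05 as the threshold. Fold changes are on that scale, given as the size of the change.

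Translation factor transcripts were mostly higher in scc2-4, by small amounts. The median log2 change of the 37 genes was 0.38, where that of all features tested was 0.047. Of the 37 genes, 34 had a change above 0 (91.9%), as did 54.2% of all features. Only SUI1, the gene for eIF1, changed at least 2-fold. Together the 37 genes took 3.28% ± 0.096 of assigned reads in scc2-4 and 2.55% ± 0.538 in WT (SD, n = 3 each). By library these shares were 3.17%, 3.32% and 3.35% in scc2-4 replicates 1 to 3, and 1.94%, 2.80% and 2.93% in WT replicates 1 to 3.

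At the adjusted threshold 7 of the 37 genes rose, none fell and 30 did not pass. These 7 are 18.9% of the genes, while 17.5% of all features tested were called higher and 15% lower, so the count of calls did not set the translation factors apart. Outside chromosomes I and IX, which hold none of the 37 genes, 15.4% of features were called higher and 15.7% lower. At an unadjusted p of 0.05, 15 genes were higher and 1 was lower, and 16 had an adjusted p under 0.1. The last of these 16 by p, TIF5 (adjusted p = 0.0990, limma), was the 2963rd of 6559 features by p, in either direction. Many other features thus passed these looser cuts too. The shares of all features higher or lower at them were not counted, so these counts do not set the genes apart. Separation of the libraries was scored on RPKM, before the median feature was set equal in all libraries. It gave a larger share: for 25 of the 37 genes (67.6%) every scc2-4 library exceeded every WT library. Of all features 30.9% did so, and 29.2% of those outside chromosomes I and IX. With the median feature set equal, TEF1 and TEF2 no longer separated. CAM1 alone was separated in the other direction, against 23.6% of all features and 24.6% of those outside these chromosomes.

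**Figure D1:**
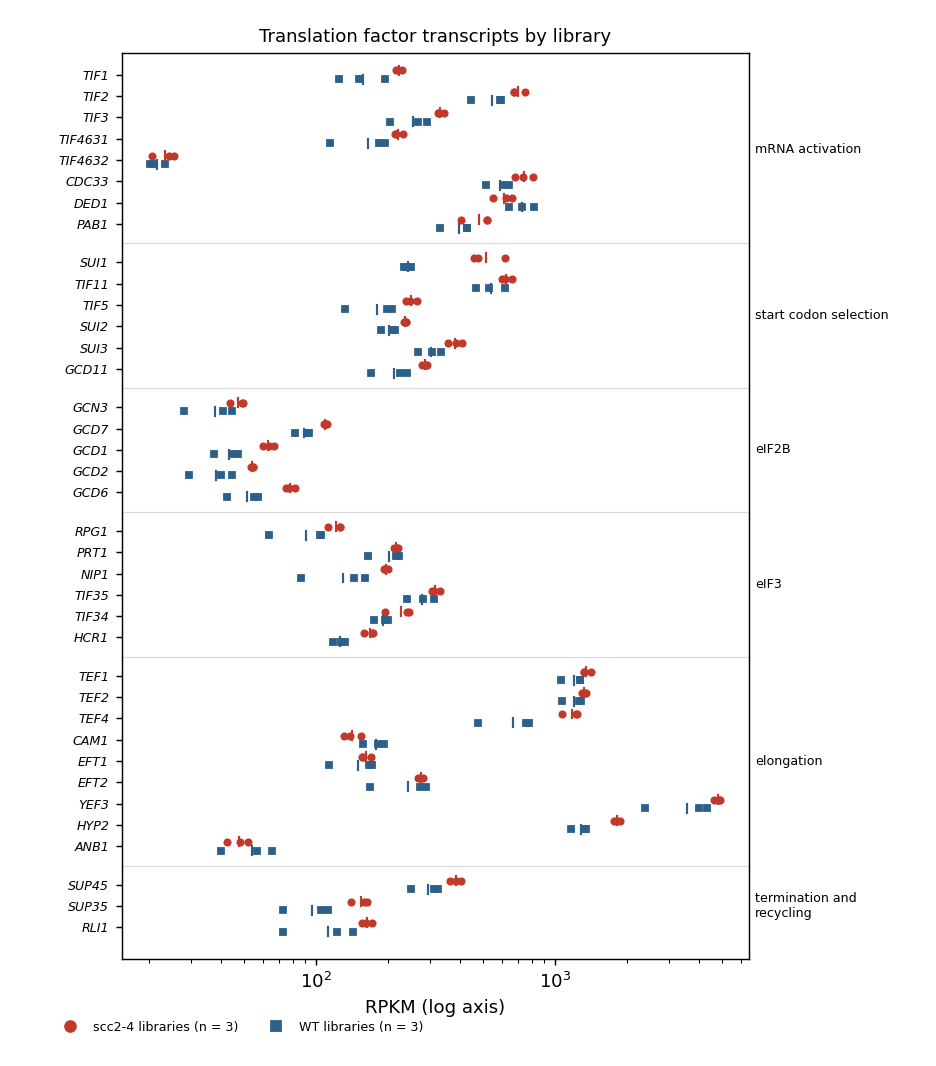
RPKM of the 37 translation factor genes in each library on a log axis, with scc2-4 libraries as circles above WT libraries as squares and a vertical tick at each mean. Mean levels run from 23.3 RPKM in scc2-4 and 21.5 RPKM in WT for TIF4632 to 4809 and 3571 RPKM for YEF3, and the leftmost WT square belongs to WT replicate 1 in 34 of the 37 genes.

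WT replicate 1 bore on the size of these changes. It was the lowest of the 6 libraries for 33 of the 37 genes (89.2%), as for 26.2% of all features. Relative to the WT mean, the median log2 level of the 37 genes was 0.32, 0.40 and 0.50 in scc2-4 replicates 1 to 3, and -0.35, 0.13 and 0.20 in WT replicates 1 to 3. Over all features tested the same medians lay between -0.012 and 0.058. WT replicate 1 had the lowest median in every factor group, as the plot of factor groups shows. Without WT replicate 1 the median change was 0.20, with 31 of 37 genes above 0, and the calls then numbered 10 higher and 3 lower. In that fit 1360 of 6557 features (20.7%) were called higher and 1082 lower. Leaving out a library also changes the power of the test: 4 and 12 genes were called higher without WT replicates 2 and 3, and 2, 1 and 1 without scc2-4 replicates 1, 2 and 3. Of all features 11.2% and 18.5% were called higher without WT replicates 2 and 3. Without scc2-4 replicates 1, 2 and 3 these shares were 7.88%, 5.70% and 5.80%.

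**Figure D2:**
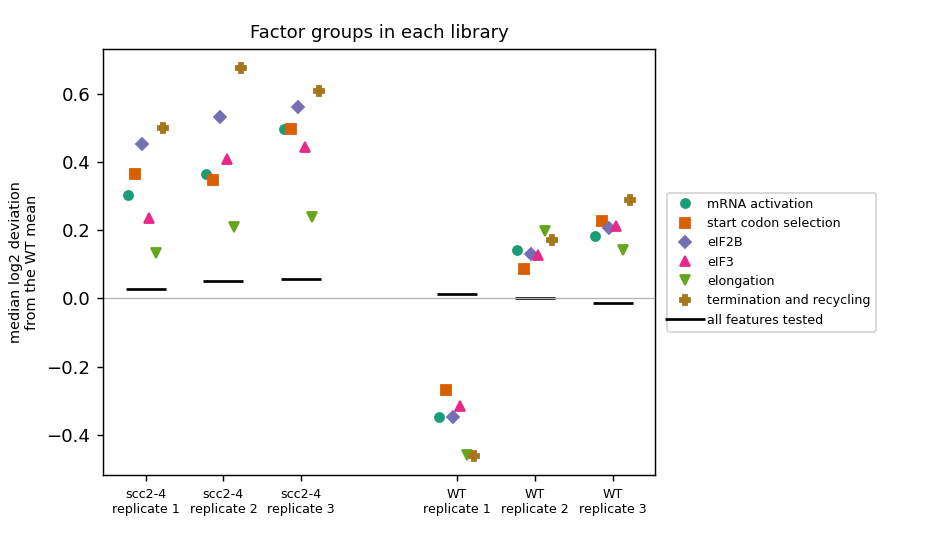
Median log2 deviation from the WT mean for each of the 6 factor groups, by library, with black bars for all features tested. In scc2-4 libraries all groups lie above 0, from 0.13 to 0.68, and in WT replicate 1 all lie below 0, from -0.27 to -0.46.

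Upstream regions of these genes share a sequence that the list did not use. In all, 8 motifs named for known yeast factors or elements were searched on both strands in the 400 bases before each annotated start, over 6662 regions of protein-coding features. The octamer AAAATTTT, the core of the ribosomal RNA processing element (RRPE) known from ribosome biogenesis genes, was present in 24 of the 37 regions (64.9%) and in 10.4% of all regions. Its 28 matches lay 96 to 322 bases before the start, and 1 of them overlapped a match of another motif searched. The Abf1 pattern, CGT and TGA spaced by 6 bases, occurred in 18 of the 37 (48.6%) and in 18.6% of all regions, the Reb1 pattern CGGGTAA in 10 (27%) and 8.57%, and the PAC core GATGAG in 10 (27%) and 23.4%. The Rap1 pattern, CACCC and ACA spaced by 2 bases, was found in 1 of the 37, TEF4, and in 1.8% of all regions. The stress element AGGGG was in 6 of the 37 (16.2%) and 28.5% of all regions, and the Gcn4 site TGACTC in 0 of the 37 and 10.5%. A match is a description of letters and not a bound site. Of the 7 genes that rose, 5 carried the octamer, as did 24 of all 37. For these 5, 30 bases around it are shown with the octamer in capitals. They are read 5′ to 3′ on the strand of the gene from the RefSeq R64 genome.
SUI1, chrXIV:187644-187673, minus strand: tgcgccggcaaAAAATTTTagttttttttt
GCD1, chrXV:813842-813871, plus strand: ccgcctatcgcAAAATTTTtcacttctcat
TEF4, chrXI:282741-282770, plus strand: aaattgaaagaAAAATTTTtttcatcaaca
HYP2, chrV:85436-85465, plus strand: cagtggtaataAAAATTTTtttcgtcgtcg
SUP35, chrIV:808156-808185, plus strand: tctttatggagAAAATTTTtttttcactcg
The 24 genes with the octamer had a median log2 change of 0.46, and the other 13 had 0.26. Among all protein-coding features tested with such a region, 10.9% carried it, and their median log2 change was 0.33, against 0.019 for those without it. Listed genes with the PAC core had a median of 0.391 and those without it 0.355, and the Abf1 pattern gave the same values. Over all these features the medians with and without were 0.203 and 0.00714 for PAC, and 0.0842 and 0.0407 for Abf1. Whether any motif bears on the change was not tested. GCD6 and HCR1, the other 2 genes that rose, had no match of the octamer in this window.

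Start codon selection held the largest change of the set. SUI1 (YNL244C, sacCer3 chromosome XIV, 187170 to 187496, minus strand) encodes eIF1, which keeps the scanning ribosome from stopping at wrong codons. Its transcript stood at 474, 456 and 619 RPKM in scc2-4 replicates 1 to 3, and at 234, 240.3 and 249 RPKM in WT replicates 1 to 3. The lowest mutant library was well above the highest WT library, and WT replicate 1 did not stand apart for this gene. SUI1 rose 2.13-fold (log2 change 1.09 ± 0.15 SE, adjusted p = 0.00472, limma). It was the 254th of 6559 features by p, and its call held under all 17 alternatives run, with adjusted p from 0.00221 to 0.0227.

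Its partners moved less. TIF11, the gene for eIF1A, which acts beside eIF1 in scanning, averaged 625 ± 30.1 RPKM in scc2-4 and 537 ± 77.8 RPKM in WT, with overlapping libraries (adjusted p = 0.265, limma). TIF5, for the GTPase activator eIF5, averaged 250 ± 14.2 and 179 ± 41.5 RPKM (log2 change 0.52, adjusted p = 0.0990, limma). The subunit genes of eIF2 were SUI2 (alpha), SUI3 (beta) and GCD11 (gamma), with log2 changes of 0.23, 0.36 and 0.46. In all 3 the genotypes did not overlap, and none passed with all 6 libraries (adjusted p = 0.160, 0.0985 and 0.0773, limma). SUI3 overlaps YPL238C, and reads where they overlap cannot be told apart. GCD11 passed without WT replicate 1, with a smaller log2 change of 0.27 (adjusted p = 0.0442), and without WT replicate 3 (0.0420), and ranged from 0.0420 to 0.198 across alternatives.

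The guanine nucleotide exchange factor eIF2B had the genes of both catalytic subunits among those that rose. GCD6 (YDR211W, chromosome IV, 884727 to 886865, plus strand) encodes the epsilon subunit, which carries the exchange activity. It stood at 76.7, 74.7 and 81.8 RPKM in scc2-4 replicates 1 to 3, and at 42.4, 55.1 and 57.0 RPKM in WT. The genotypes did not overlap, and the change was 1.52-fold (log2 change 0.61 ± 0.16 SE, adjusted p = 0.0277, limma). GCD1 (YOR260W, chromosome XV, 813984 to 815720, plus strand), for the gamma subunit that pairs with epsilon, stood at 59.9, 63.2 and 66.3 RPKM in scc2-4 libraries and at 37.4, 44.7 and 47.3 RPKM in WT libraries. It too was separated, with a 1.47-fold rise (log2 change 0.56 ± 0.14 SE, adjusted p = 0.0247, limma). Both calls were lost when any 1 scc2-4 replicate was left out (adjusted p = 0.0722, 0.0799 and 0.0985 for GCD6, and 0.0576, 0.0832 and 0.0928 for GCD1), and that on GCD1 also without WT replicate 2 (0.0519). Across alternatives the adjusted p was 0.00687 at its lowest for GCD6 and 0.00994 for GCD1.

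The regulatory subunits of eIF2B sense phosphorylated eIF2. GCD2 (delta) averaged 54.0 ± 0.428 RPKM in scc2-4 and 38.0 ± 7.82 RPKM in WT, with a log2 change of 0.53 and no overlap (adjusted p = 0.0626, limma). GCD2 passed without WT replicate 1, with a smaller log2 change of 0.32 (adjusted p = 0.0221). It also passed without WT replicate 3 (0.0281) and with no centring (0.0446), and ranged from 0.0221 to 0.163 across alternatives. GCD7 (beta) averaged 109 ± 1.57 and 89.1 ± 6.64 RPKM, also separated (log2 change 0.30, adjusted p = 0.0794, limma). GCN3, for the alpha subunit and the one subunit that growing yeast can lose, averaged 47.2 ± 3.11 and 37.6 ± 8.60 RPKM, and its mutant and WT libraries overlapped (adjusted p = 0.212, limma). Within a genotype the levels per length of the 5 subunit genes lay between 47.2 and 109 RPKM in scc2-4 and between 37.6 and 89.1 RPKM in WT, with GCD7 the highest in both.

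In eIF3, the scaffold of the initiation complex, HCR1 was the gene that rose. HCR1 (YLR192C, chromosome XII, 538792 to 539589, minus strand) encodes the loosely bound j subunit, which also takes part in termination and in ribosomal RNA maturation. It stood at 159, 173 and 172 RPKM in scc2-4 replicates 1 to 3, and at 132, 128 and 117 RPKM in WT. The genotypes were separated, and WT replicate 1 had the highest RPKM of the WT libraries here, unlike for most of the set. With the median feature set equal in all libraries, WT replicate 2 was the highest. Its log2 value was then 0.056 relative to the WT mean, against -0.0090 in WT replicate 1. HCR1 rose 1.34-fold (log2 change 0.42 ± 0.098 SE, adjusted p = 0.0190, limma). The call ended without scc2-4 replicates 2 and 3 (adjusted p = 0.0793 and 0.0789) and was at 0.00947 at its lowest.

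The 5 core subunit genes of eIF3 did not pass with all 6 libraries. NIP1, for the c subunit, which contacts eIF1 and eIF5, averaged 195 ± 4.52 RPKM in scc2-4 and 130.04 ± 38.4 RPKM in WT, without overlap (log2 change 0.64, adjusted p = 0.0878, limma). It passed without WT replicate 1 (log2 change 0.33, adjusted p = 0.0232) and without WT replicate 3 (0.0392), and ranged from 0.0232 to 0.206 across alternatives. RPG1, for the a subunit, averaged 121 ± 8.27 and 90.5 ± 23.5 RPKM and was also separated (adjusted p = 0.158, limma). PRT1, TIF34 and TIF35, for the b, i and g subunits, had overlapping libraries and log2 changes of 0.13, 0.26 and 0.20. Without WT replicate 1 the change of PRT1 was -0.048.

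**Figure D3:**
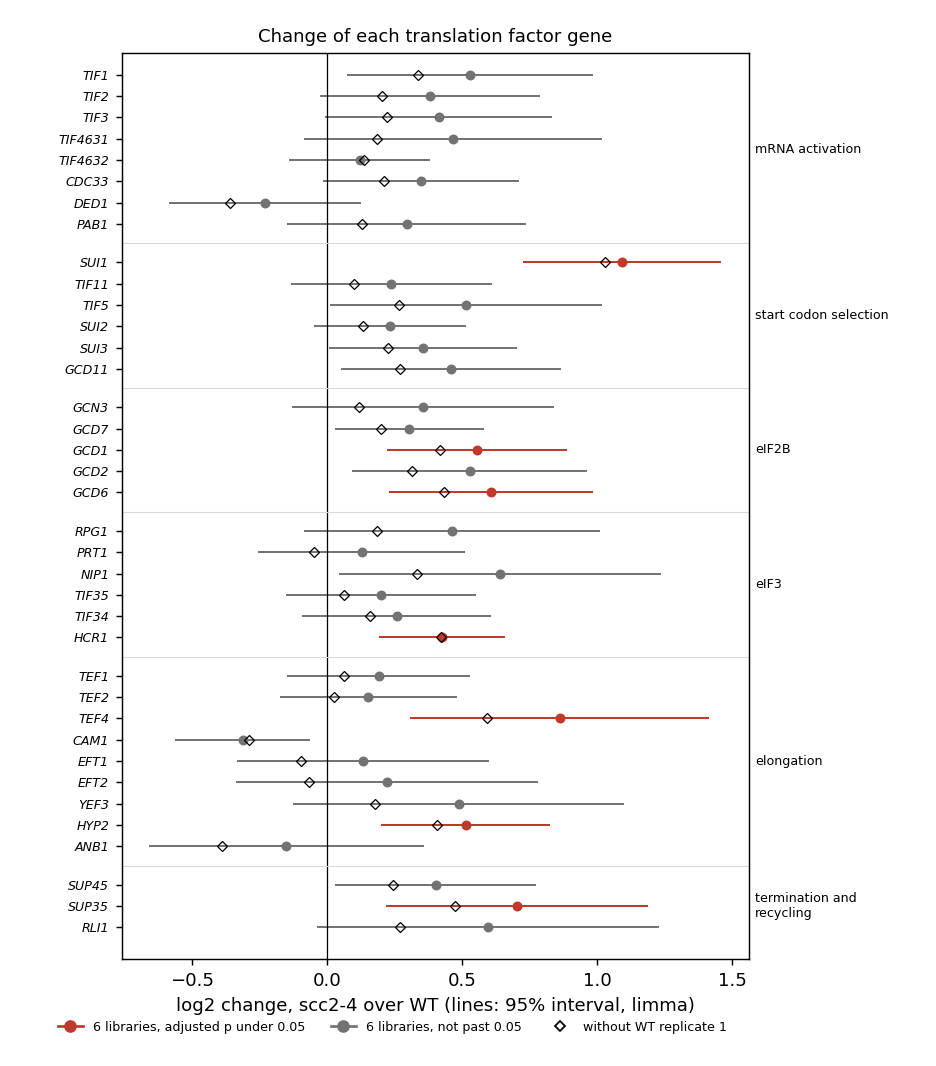
Log2 change of each gene, scc2-4 over WT, with its 95% interval from limma; red marks genes past the adjusted threshold and open diamonds the value without WT replicate 1. The 7 red genes run from 0.42 for HCR1 to 1.09 for SUI1, and most open diamonds lie closer to 0 than their circles.

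No gene of mRNA activation passed the threshold, although 5 of the 8 were separated between genotypes. eIF4A, the helicase of the cap-binding complex, is encoded by TIF1 and TIF2, whose reading frames differ at 6 of 1188 bases. TIF1 stood at 216, 219 and 229 RPKM in scc2-4 libraries and at 125, 151 and 194 RPKM in WT libraries (log2 change 0.53, adjusted p = 0.0701, limma). TIF2 stood at 673, 673 and 746 RPKM in scc2-4 and at 445, 594 and 589.9 RPKM in WT (log2 change 0.38, adjusted p = 0.123, limma). Both were separated, but only 15.1% of their 50-base windows occur once in the genome, so the split of reads between them is uncertain. TIF1 passed without WT replicate 3 (adjusted p = 0.0172), had a log2 change of 0.34 without WT replicate 1, and ranged from 0.0172 to 0.187 across alternatives.

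The scaffold eIF4G comes from 2 genes of unequal level. TIF4631 stood at 215, 216 and 229.9 RPKM in scc2-4 and at 115, 184 and 195 RPKM in WT (log2 change 0.47, adjusted p = 0.156, limma). TIF4632 stood at 20.5, 25.3 and 24.2 RPKM in scc2-4 and at 23.3, 21.0 and 20.2 RPKM in WT (log2 change 0.12, adjusted p = 0.411, limma). The genotypes were separated for TIF4631 and overlapped for TIF4632, the lowest of all 37 genes. CDC33, for the cap-binding protein eIF4E, averaged 740 ± 61.8 RPKM in scc2-4 and 587 ± 66.2 RPKM in WT. TIF3, for eIF4B, which stimulates the helicase, averaged 331 ± 11.5 and 253 ± 45.2 RPKM. Both were separated and did not pass (adjusted p = 0.117 and 0.109, limma). PAB1, for the poly(A)-binding protein, overlapped between genotypes (log2 change 0.30). DED1, for a helicase that unwinds structured leaders, was 1 of 3 genes with a change below 0, at 613 ± 58.3 RPKM in scc2-4 and 726 ± 87.4 RPKM in WT (log2 change -0.23, adjusted p = 0.259, limma), and it passed as lower without WT replicate 1 (log2 change -0.36, adjusted p = 0.0356, against 0.551 at the highest over the alternatives). DED1 overlaps YOR203W, and reads where they overlap cannot be told apart.

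Elongation held the most abundant transcripts and 2 genes that rose. YEF3, for the fungal ATPase eEF3, had the highest level of the set, at 4645, 4918 and 4864 RPKM in scc2-4 and at 2382, 3995 and 4336 RPKM in WT. Every mutant library was above every WT library, but WT replicate 1 lay far below the other WT libraries, and the change did not pass (log2 change 0.49, adjusted p = 0.179, limma). Without WT replicate 1 the log2 change was 0.18. YEF3 took 1.51% ± 0.045 of assigned reads in scc2-4 and 1.12% ± 0.327 in WT.

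TEF4 and CAM1 both encode the gamma subunit of the exchange factor eEF1B, and they stood on opposite sides. TEF4 (YKL081W, chromosome XI, 282891 to 284455, plus strand) was at 1072, 1238 and 1229.7 RPKM in scc2-4 replicates 1 to 3, and at 476, 755 and 774 RPKM in WT. It was separated and rose 1.82-fold (log2 change 0.86 ± 0.23 SE, adjusted p = 0.0303, limma). Leaving out any 1 scc2-4 replicate ended its call (adjusted p = 0.0663, 0.1004 and 0.0998, against 0.00644 at the lowest over the alternatives). The span of TEF4 includes an intron that encodes the small nucleolar RNA SNR38, whose reads came to 9.33% to 9.98% of those of TEF4 in scc2-4 and 9.42% to 10.1% in WT. Subtracting them left the log2 change at 0.86 (adjusted p = 0.0303, limma). CAM1 was at 154, 139 and 131 RPKM in scc2-4, and at 193, 182 and 157 RPKM in WT. All its mutant libraries lay below all WT libraries, and it did not pass (log2 change -0.31, adjusted p = 0.0574, limma). It passed as lower without WT replicate 1 (adjusted p = 0.0493), with no filter on low values (0.0461) and on recovered reads (0.0423), and ranged from 0.0423 to 0.178.

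The translation factor eIF5A, which helps the ribosome through difficult peptide bonds, has an aerobic gene, HYP2, and a hypoxic gene, ANB1. HYP2 (YEL034W, chromosome V, 85676 to 86149, plus strand) stood at 1771, 1811 and 1869 RPKM in scc2-4 replicates 1 to 3, and at 1169, 1331 and 1352 RPKM in WT. The genotypes were separated, and HYP2 rose 1.43-fold (log2 change 0.51 ± 0.13 SE, adjusted p = 0.0258, limma). Its call ended without WT replicate 2 (adjusted p = 0.0511) and when any 1 scc2-4 replicate was left out (0.0696, 0.0876 and 0.0954), and was at 0.0145 at its lowest. HYP2 lies within YEL034C-A on the other strand, and reads of the pair cannot be told apart. ANB1 (YJR047C, chromosome X, 524908 to 525381, minus strand) stood at 42.2, 48.2 and 51.7 RPKM in scc2-4, and at 40.0, 65.5 and 56.4 RPKM in WT. Its libraries overlapped (log2 change -0.15, adjusted p = 0.596, limma). It passed as lower without WT replicate 1 (log2 change -0.39, adjusted p = 0.0386), and was at 0.015 without WT replicate 2 (adjusted p = 0.960). The reading frames of HYP2 and ANB1 differ at 43 of 474 bases, and their longest identical run is 43 bases. All of their 50-base windows occur once in the genome, but 96.4% of their 36-base windows do. The read length is not given in the sources used here. How far reads of the much higher HYP2 enter the ANB1 level, and so their ratio, was not tested. The 90 bases with the most differences, bases 281 to 370 of each frame, are shown from the RefSeq R64 genome because they separate reads of the 2 genes. Capitals mark the 13 differing bases.
HYP2, chrV:85956-86045, plus strand: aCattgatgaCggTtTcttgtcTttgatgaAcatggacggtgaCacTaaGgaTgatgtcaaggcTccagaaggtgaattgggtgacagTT
ANB1, chrX:525012-525101, minus strand: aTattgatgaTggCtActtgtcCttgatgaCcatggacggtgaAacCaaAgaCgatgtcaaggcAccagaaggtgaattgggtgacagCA
ANB1 is known as a target of the hypoxic repressor Rox1. The Rox1 core ATTGTTCT was found at 2 places in the 400 bases before its start, and in the regions of 3 of the 37 genes and 3.83% of all regions. Both places are shown with the core in capitals.
ANB1, chrX:525644-525673, minus strand: tttttcgccctATTGTTCTcgagcctaaaa
ANB1, chrX:525577-525606, minus strand: tttcctattccATTGTTCTctttggtaaac

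The elongation factors eEF1A and eEF2 are each encoded by 2 near-identical genes. TEF1 and TEF2, for eEF1A, differ at 2 of 1377 bases, and 7.53% of their 50-base windows occur once in the genome. The 90 bases that hold both differences, bases 745 to 834 of each frame, show how few reads can tell them apart. Capitals mark the differences.
TEF1, chrXVI:701338-701427, plus strand: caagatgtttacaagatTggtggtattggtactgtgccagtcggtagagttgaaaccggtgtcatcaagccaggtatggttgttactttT
TEF2, chrII:478415-478504, plus strand: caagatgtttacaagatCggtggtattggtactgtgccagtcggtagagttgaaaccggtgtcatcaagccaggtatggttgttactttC
TEF1 stood at 1327, 1319 and 1413 RPKM in scc2-4 libraries and at 1057, 1269 and 1266 RPKM in WT libraries (log2 change 0.19, adjusted p = 0.321, limma). TEF2 stood at 1333, 1291 and 1345 RPKM in scc2-4 and at 1066, 1286 and 1257 RPKM in WT (log2 change 0.15, adjusted p = 0.411, limma). Both were separated in RPKM by a narrow margin and did not pass. With the median feature set equal in all libraries, both overlapped. Relative to the WT mean, the lowest scc2-4 and highest WT log2 values were then 0.135 and 0.137 for TEF1. For TEF2 they were 0.117 and 0.133. EFT1 and EFT2, for the translocase eEF2, differ at 4 of 2529 bases, and 8.07% of their 50-base windows occur once. EFT1 stood at 156, 169.8 and 158 RPKM in scc2-4 and at 114, 166 and 171 RPKM in WT. EFT2 stood at 268, 281 and 271 RPKM in scc2-4 and at 167, 273 and 288 RPKM in WT. Their libraries overlapped (adjusted p = 0.614 and 0.481, limma), and without WT replicate 1 the log2 changes were -0.098 and -0.066. Levels of these pairs and of TIF1 and TIF2 cannot be set beside those of other genes, since most of their length is shared.

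Termination and recycling had SUP35 among the genes that rose. SUP35 (YDR172W, chromosome IV, 808324 to 810381, plus strand) encodes the release factor GTPase eRF3, known for its prion form. It stood at 139.8, 163 and 159 RPKM in scc2-4 replicates 1 to 3, and at 72.7, 105 and 112 RPKM in WT. The genotypes were separated, and the rise was 1.63-fold (log2 change 0.70 ± 0.20 SE, adjusted p = 0.0371, limma). The call ended without WT replicate 2 (adjusted p = 0.0605) and when any 1 scc2-4 replicate was left out (0.0711, 0.119 and 0.118), and was at 0.0112 at its lowest. SUP45, for eRF1, which reads stop codons, averaged 385 ± 21.3 RPKM in scc2-4 and 295 ± 40.1 RPKM in WT (log2 change 0.40, adjusted p = 0.0858, limma). RLI1, for the ATPase that splits the ribosome, averaged 163 ± 8.36 RPKM in scc2-4 and 112 ± 35.97 RPKM in WT (log2 change 0.60, adjusted p = 0.124, limma), and passed without WT replicate 3 (adjusted p = 0.0450, against 0.261 at the highest over the alternatives). Without WT replicate 1 the log2 change of RLI1 was 0.27 and did not pass (adjusted p = 0.0750). Both were separated between genotypes.

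Balance within 6 pairs of related genes was compared as the log2 ratio of their levels in each library. HYP2 exceeded ANB1 by a log2 ratio of 5.24 ± 0.11 in scc2-4 and 4.57 ± 0.25 in WT (SD, n = 3 each), and TEF4 exceeded CAM1 by 3.05 ± 0.23 and 1.88 ± 0.52. In both pairs all mutant libraries lay above all WT libraries, with differences of 0.66 and 1.17. Each had an exact permutation p of 0.10 (two-sided; 0.30 after adjustment over the 6 pairs). That is the smallest this test can give with 3 libraries against 3, so it could not reach 0.05 for any pair and does not say whether the ratios differ. The TEF4 to CAM1 difference was 0.88 without WT replicate 1. The ratio of TIF4631 to TIF4632 was 3.19 ± 0.14 in scc2-4 and 2.84 ± 0.52 in WT, with an exact permutation p of 0.50 (0.50 after adjustment), and without WT replicate 1 its difference was 0.050. TIF1 to TIF2, TEF1 to TEF2 and EFT1 to EFT2 differed by 0.15, 0.039 and -0.090, with overlapping libraries in each and an exact permutation p of 0.40, 0.20 and 0.20 (0.48, 0.30 and 0.30 after adjustment).

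**Figure D4:**
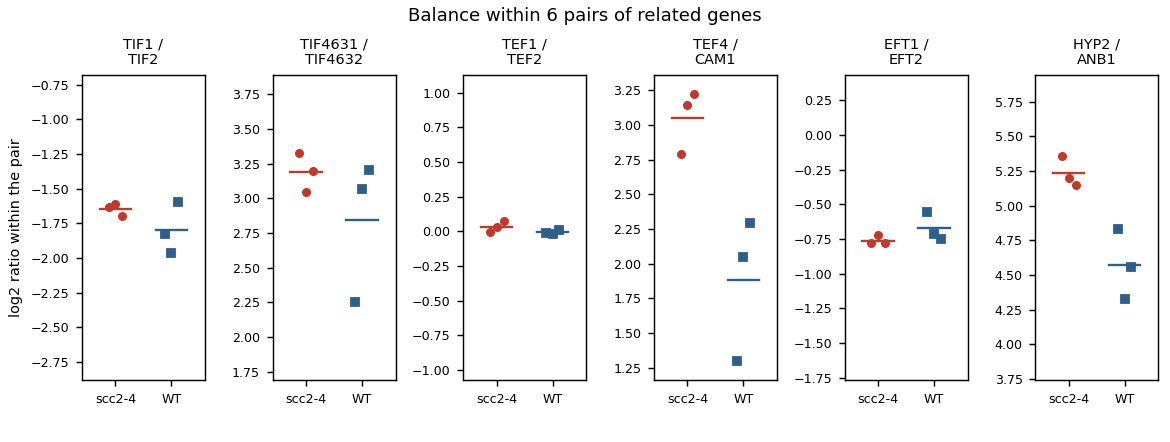
Log2 ratio of RPKM + 1 within each pair, first gene over second, by library, with scc2-4 left of WT and a line at each mean; all panels span the same 2.2 log2 units. The genotypes do not overlap for TEF4 / CAM1 and HYP2 / ANB1, and the TEF1 / TEF2 ratio lies between -0.019 and 0.071.

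Other genes that act on cytosolic translation were similar in direction. Of 38 such genes in a separate list, covering further factors, their regulators and the enzymes that modify them, 12 rose (31.6%), none fell and 26 did not pass, with a median log2 change of 0.34. Among all features tested 17.5% were called higher and 15% lower, and outside chromosomes I and IX 15.4% were called higher. SEE1, for a methyltransferase of eEF1A also named EFM4, rose 3.28-fold to 175 ± 18.4 RPKM in scc2-4, against 53.1 ± 7.58 RPKM in WT (adjusted p = 0.00190, limma). DPH1, for an enzyme of the diphthamide on eEF2, rose 2.87-fold (adjusted p = 0.00358), and SRO9, an RNA-binding protein gene, 3.47-fold to 11.6 ± 2.17 RPKM in scc2-4, against 2.80 ± 1.34 RPKM in WT (adjusted p = 0.00879). SEE1 and DPH1 lie on chromosome IX, and 4 of the 5 members of this list on chromosomes I and IX were among the 12 that rose. The 31.6% includes these genes, whereas the 15.4% leaves out all features of both chromosomes, so these 2 shares are not like measures. WT replicate 1 was the lowest library for 26 of the 38, and without it 15 rose (39.5%) and the median was 0.19. Of all features 20.7% were called higher in that fit. Without WT replicate 2 the number that rose was 7 (18.4%, against 11.2% of all features). Without scc2-4 replicates 1, 2 and 3 it was 5, 4 and 3, or 13.2%, 10.5% and 7.9% of the list. Of all features 7.88%, 5.70% and 5.80% were called higher in these fits. GCN4, whose translation responds to eIF2B activity, averaged 276 ± 19.4 RPKM in scc2-4 and 218 ± 5.43 RPKM in WT and did not pass (adjusted p = 0.0546, limma).

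Changes of mitochondrial translation factor genes were below 0. Of 12 such genes 5 fell (41.7%), none rose and 7 did not pass, with a median log2 change of -0.39, where 15% of all features tested were called lower. RRF1, for the mitochondrial ribosome recycling factor, fell 1.68-fold to 14.96 ± 1.13 RPKM in scc2-4, against 26.0 ± 2.72 RPKM in WT (adjusted p = 0.00377, limma). GUF1, for a mitochondrial GTPase related to elongation factors, fell 1.58-fold (adjusted p = 0.00917), and MTG1, for a GTPase of mitochondrial ribosome assembly, 1.44-fold (adjusted p = 0.0171). WT replicate 1 was the highest of the 6 libraries for all 12 of these genes, whereas it was the lowest for 33 of the 37 cytosolic factor genes. The share of all features with WT replicate 1 as the highest library was not counted. Without WT replicate 1 the median of the 12 genes was -0.23, and 5 fell, where 1082 of 6557 features were called lower. MEF1, for a mitochondrial elongation factor, averaged 40.9 ± 1.31 RPKM in scc2-4, and stood at 57.3, 41.6 and 38.6 RPKM in WT replicates 1 to 3, so its WT replicates 2 and 3 lay close to the mutant mean. Without any 1 scc2-4 replicate, 2 of the 12 fell (16.7%). Without scc2-4 replicates 1, 2 and 3, features called lower numbered 523 of 6549, 408 of 6545 and 386 of 6552. MEF1 was chosen after its values were seen.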

How the data were processed

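The table deposited by the authors holds RPKM values for 7130 features in 6 libraries. Bowtie and the build sacCer3 are named per the submitters' processing notes, and the counting tool is not given in the sources used here. RPKM times feature length (end minus start) summed to 1000000 per column. Where 2 decimals resolve 0.1 of a read, 100% of values up to 100 reads lay within 0.1 of a whole read, which gave the depths. Reads of overlapping features were not separated, and no use of strand is stated. All 37 genes had the same coordinates in the RefSeq R64 annotation.

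The values were put on a log2(RPKM + 1) scale, keeping features whose mean RPKM reached 1, and the median feature was set equal in all libraries. Uncentred, scc2-4 minus WT had a median of 0.037. The comparison used limma 3.58.1 in R 4.3.3 (trend, Benjamini-Hochberg over 6559 features). No replicate block was used: same-numbered libraries correlated at 0.31, -0.062 and 0.35 in their deviations, so the numbers were not taken as pairs. The test was tested on simulated data. Values in every library are given for genes past the threshold and for pairs of related genes, and from the other lists up to 3 genes past the threshold with the smallest p. The genes and lists were chosen with earlier results of these data known. Windows occurring once were counted by exact match on both strands. Python 3.11.15, scipy 1.17.1 and matplotlib 3.10.9 were used. Alternatives on scaling, pseudocount, filter, model and each library are given in the closing section, and the subtraction of SNR38 and the left-out libraries for the other lists were added after seeing the data.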

Additional observations from a re-analysis of the deposited data

How the results depend on the processing

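The 37 genes kept a positive median log2 change under all 17 alternatives run for it, from 0.20 without WT replicate 1 to 0.47 without WT replicate 3. The number called higher was 7 to 9 under the 11 alternatives that kept all libraries, except 5 among 33 genes when overlapping features were left out, which removes HYP2 and TEF4. With libraries left out it ran from 1 to 12, the number called lower from 0 to 3, and the number of features called from 766 to 2442, in fits with fewer samples. CAM1 was called lower, as 1 gene, with no filter on low values and with limma-voom on recovered reads. Changes of sign came only with a WT library left out: PRT1 at -0.048, EFT1 at -0.098 and EFT2 at -0.066 without WT replicate 1, and ANB1 at 0.015 without WT replicate 2. With libraries left out these 4 genes reached 0.23, 0.26 and 0.39 (PRT1, EFT1 and EFT2, without WT replicate 3) and -0.39 (ANB1, without WT replicate 1); the cause was not tested. SUI1 alone kept its call throughout. With the replicate number as a replicate block, 9 genes were higher, among 2341 features called; GCD2 and TIF1 joined the 7. The numbers do not pair the libraries by any label. In deviations from the mean of its genotype, WT replicate 2 correlated best with scc2-4 replicate 3. In log2 values it correlated best with scc2-4 replicate 1 (0.9691) and least with scc2-4 replicate 3 (0.9572). For single genes the alternatives that kept all libraries gave 399 results on the same side of the threshold and 5 newly past it. Without 1 library these were 187 and 11, with 20 calls lost and 4 changes of sign.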
